A study of Mus musculus with 4 samples.

Results

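The Pax genes, a family of paired-box transcription factors, were examined in the frontonasal prominence (FNP), from which the nose and snout form. The members were the 8 rows of the deposited table named Pax1, Pax2, Pax3, Pax5, Pax6, Pax7, Pax8 and Pax9, out of 33708 rows of autosomal genes, and they were chosen by name and not by their values. The tissue came from 4 mouse embryos of the FVB/NJ strain at E10.5 and 29 somites. There were 2 wild-type embryos (Smchd1+/+, WT, 1 female and 1 male by the labels) and 2 embryos homozygous for MommeD43 (MD43, both labelled male), a missense allele of Smchd1 that arose in a chemical mutagenesis screen. SMCHD1 binds chromatin and helps to silence genes, and the genotypes were compared to see which transcripts differ when it carries the MommeD43 change. Sex and genotype are partly confounded, and another record of the study names the male WT embryo as female.

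PAX proteins bind DNA through the paired domain, and some of them carry a homeodomain as well. The family falls into 4 groups of close relatives. Pax1 and Pax9 act in the sclerotome, pharyngeal pouches, teeth and palate. Pax2, Pax5 and Pax8 act at the boundary of midbrain and hindbrain, in the optic stalk, ear and kidney. Pax3 and Pax7 act in the dorsal neural tube, neural crest and muscle precursors, and both are used in the nasal region of the face. Pax4 and Pax6 make up the last group, with Pax6 needed for the forebrain, the eye and the nasal placode, while Pax4 serves the endocrine pancreas.

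The table held the authors' log2 RPKM value (log2 of the reads, divided by the length of the transcript and by the depth of the library), averaged over the 2 libraries of each genotype. It gave no value per library. The reads of the libraries were recovered as a product per gene and genotype (see the description of the processing), and "reads" below means the square root of that product, the geometric mean of the 2 libraries. The depth was 16055881 reads per library in WT and 22328791 in MD43. Some products have a single plausible split into 2 whole counts, and these splits showed that the libraries of a genotype differed in depth by 1.46-fold in WT and 1.57-fold in MD43. Beyond depth and counting error, the log2 ratio between the libraries of a genotype varied over genes with an SD of 0.38 in WT (113 genes) and 0.29 in MD43 (92 genes). The standard error (SE) given with a difference combines this spread with the counting error and assumes that a Pax gene varies between embryos like those genes. No replicate test was possible, and no p-value is given. A difference is called here when it is at least 2-fold, or when it exceeds 2 SE. In bulk tissue, fewer cells of a type and less RNA per cell cannot be told apart.

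Pax2, Pax5 and Pax8 were the 3 Pax genes whose difference exceeded 2 SE, and all 3 were lower in MD43. Of the 15377 genes that reached 10 reads in WT or MD43, 5.51% were lower by more than 2 SE. This share was 12.1% at 10 to 100 reads on average, the class of Pax2 and Pax5. It was 18.8% under 10 reads, the class of Pax8, which reached 10 reads in WT alone. Whether the 3 differences share a cause was not tested. The bases before the start sites of these close relatives are shown. Each line gives the 250 bases upstream of a RefSeq transcription start (GRCm38.p6), 5′ to 3′ on the strand of the gene, at chr19:44755502-44755751 (plus strand) for Pax2, chr4:44710695-44710944 (minus strand) for Pax5 and chr2:24475600-24475849 (minus strand) for Pax8. Capitals mark every match, on either strand, to 4 short motifs. These were the TATA box, spelled TATAAA, and the CCAAT box, spelled CCAAT. The GC box was searched as GGGCGG. The core site of many homeodomain proteins was searched as TAATTA.
Pax2: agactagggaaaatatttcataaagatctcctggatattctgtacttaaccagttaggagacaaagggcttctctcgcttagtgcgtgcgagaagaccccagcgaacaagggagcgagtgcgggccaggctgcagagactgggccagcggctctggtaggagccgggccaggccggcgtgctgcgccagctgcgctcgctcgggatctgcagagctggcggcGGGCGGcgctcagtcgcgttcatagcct
Pax5: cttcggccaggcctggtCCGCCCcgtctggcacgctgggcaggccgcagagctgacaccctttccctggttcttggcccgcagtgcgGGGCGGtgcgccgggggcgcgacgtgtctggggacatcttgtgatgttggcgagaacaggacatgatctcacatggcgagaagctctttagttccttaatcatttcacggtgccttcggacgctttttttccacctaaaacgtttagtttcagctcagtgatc
Pax8: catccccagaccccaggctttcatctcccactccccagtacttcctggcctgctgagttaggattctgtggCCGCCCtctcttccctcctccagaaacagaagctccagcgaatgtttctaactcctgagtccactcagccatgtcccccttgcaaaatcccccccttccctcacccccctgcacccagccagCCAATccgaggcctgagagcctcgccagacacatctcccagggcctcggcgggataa

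The windows held 20 CpG dinucleotides for Pax2, 19 for Pax5 and 6 for Pax8, beside a median of 6 over 32851 promoter windows of the same length. A GC box stood in each of the 3 windows (1 in Pax2, 2 in Pax5 and 1 in Pax8), and 32.7% of all windows had at least 1. It was not particular to these genes, since the windows of Pax1 and Pax7 held 1 each, while those of Pax6 and Pax9 held none. Pax8 also had a CCAAT box, which 33.8% of all windows had. No TATAAA or TAATTA was found in these windows, against 12.4% and 4.84% of all windows. None of the motifs overlapped another. For Pax2, RefSeq listed 3 starts, and the window shown is the one nearest to the gene start that overlaps no annotated exon. The Pax2 window at chr19:44746351-44746600 had no GC box and 5 CpG, and that at chr19:44756656-44756905 had 1 GC box and 25 CpG. RefSeq windows were at hand for 7 of the 8 members, all but Pax3. These matches are a description of the letters in the windows.

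The levels of the family spanned a wide range. Pax6 (ENSMUSG00000027168, chromosome 2, 105668900 to 105697364, plus strand) had the highest level, at 3.38 log2 RPKM in WT and 3.03 in MD43. Pax7 (ENSMUSG00000028736, chromosome 4, 139737062 to 139833528, minus strand) followed at 2.45 in WT and 2.83 in MD43. Pax3 (ENSMUSG00000004872, chromosome 1, 78101267 to 78197134, minus strand) came next at 1.91 in WT and 2.12 in MD43. These 3 genes made up 92.0% of the summed RPKM of the family in WT and 94.9% in MD43.

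Pax2 (ENSMUSG00000004231, chromosome 19, 44756045 to 44837871, plus strand) was at -0.49 log2 RPKM in WT and -1.69 in MD43. Pax9 (ENSMUSG00000001497, chromosome 12, 56691767 to 56712822, plus strand) was at -0.97 in WT and -0.86 in MD43. The order of these genes was thus Pax2 above Pax9 in WT and Pax9 above Pax2 in MD43. Pax5 (ENSMUSG00000014030, chromosome 4, 44524757 to 44710487, minus strand) was at -1.68 in WT and -2.52 in MD43. Pax8 (ENSMUSG00000026976, chromosome 2, 24420560 to 24475599, minus strand) was at -2.48 in WT and -5.36 in MD43.

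**Figure D1:**
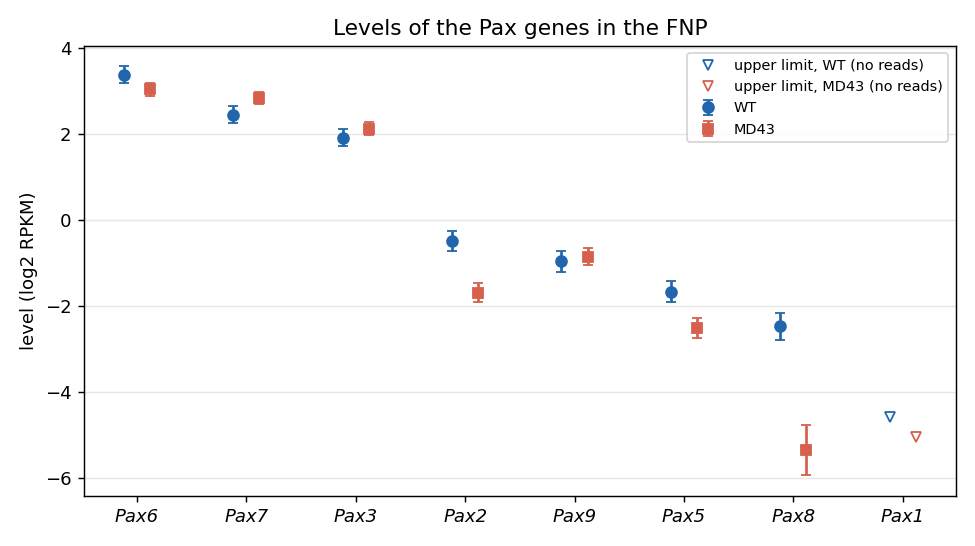
Level of each Pax gene in log2 RPKM in WT (circles) and MD43 (squares), in the order of the WT levels, with the SE of the level. Open triangles give the upper limit for Pax1, which had no reads, and Pax2, Pax5 and Pax8 sit lower in MD43 than in WT.

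In WT, neighbours in this order that differed by no more than 2 SE were Pax7 and Pax3 (0.54 ± 0.28 log2 RPKM) and Pax2 and Pax9 (0.48 ± 0.34). The steps from Pax9 to Pax5 (0.71 ± 0.35) and from Pax5 to Pax8 (0.80 ± 0.39) passed 2 SE narrowly. In MD43, Pax6 and Pax7 could not be separated (0.20 ± 0.21), while they stood 0.93 ± 0.27 apart in WT. All other neighbours in MD43 differed by more than 2 SE.

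No read of Pax1 (ENSMUSG00000037034, chromosome 2, 147361925 to 147393295, plus strand) was found in any of the 4 libraries. A limit of 3 reads in a library of average depth allows a level of up to 0.0416 RPKM in WT and 0.0299 RPKM in MD43. This limit covers counting error alone. The value listed for Pax1 differed between the genotypes by -0.48 on the log2 scale only because the floor for genes without reads lies lower in the deeper libraries, and it is no difference. Pax4, the family member outside the list, had no reads either. The remaining 7 members had at least 10 reads in at least 1 genotype.

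Over these 7 genes, 4 were lower and 3 higher in MD43. Their median log2 fold change (MD43 minus WT) was -0.35, beside 0.01 over the 15377 genes that reached 10 reads in WT or MD43. At least 2-fold lower were 2 of the 7, Pax2 and Pax8, where the share of all 15377 genes was 2.47%. Pax8 passed the filter through WT alone, and with at least 10 reads required in both genotypes the count was 1. None of the 7 was at least 2-fold higher, where the share of all genes was 1.64%. Lower by more than 2 SE were 3 of the 7 (Pax2, Pax5 and Pax8), where the share of all genes was 5.51%. This count, too, includes Pax8, which passed the filter through WT alone. No Pax gene was higher by more than 2 SE, and the share of all genes was 2.89%. Low genes move more. Among the 3870 genes with 10 to 100 reads on average, to which Pax2, Pax5 and Pax9 belong, 6.23% were lower by 2-fold or more and 2.38% higher by as much, while 12.1% were lower and 5.22% higher by more than 2 SE. Of the 6481 genes with 100 to 1000 reads, the class of Pax3 and Pax7, 0.725% lay 2-fold or more below WT and 0.154% above, and 3.98% were lower and 1.62% higher by more than 2 SE. Of the 4580 genes with over 1000 reads, the class of Pax6, the same shares were 0.0655%, 0.0437%, 0.852% and 0.633%.

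**Figure D2:**
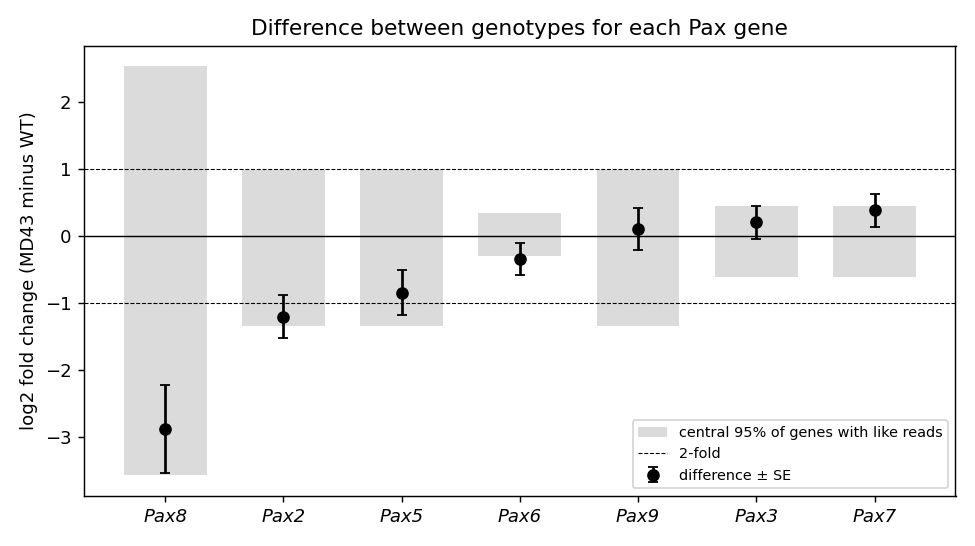
Log2 fold change (MD43 minus WT) of the 7 Pax genes with reads, with the SE. Grey boxes give the central 95% of all genes with like reads, and dashed lines mark 2-fold. Pax2 and Pax8 lie beyond the 2-fold line, inside the box of their own read class.

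Pax2, an optic stalk, ear and kidney regulator, had the most reads of the 3 genes lower by more than 2 SE. It had 61.8 reads in WT and 37.3 in MD43. The MD43 product of 1395 allowed 1 split with counts within 4-fold of each other, 31 and 45 reads. The WT product of 3825 allowed 2 such splits, 45 and 85 reads or 51 and 75 reads. The counts cannot be assigned to single embryos. With the larger count given to the deeper library, the level was computed as reads divided by depth (RPM). It was 1.61 to 1.74 in MD43 and 3.38 to 4.39 in WT, without overlap. The share of all genes that separate in this way was not counted, here or for the Pax genes below. Over all 8 ways to assign the counts to libraries, the MD43 libraries lay below both WT libraries in 7. The log2 fold change was -1.20 ± 0.32 (SE), or 2.30-fold lower in MD43. The central 95% of genes with 10 to 100 reads ran from -1.34 to 0.98, so that Pax2 lay inside it, near its lower end.

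Pax5, which acts with Pax2 at the boundary of midbrain and hindbrain and later in B cells, had 44.5 reads in WT and 34.4 in MD43. The MD43 product of 1184 allowed 1 split with counts within 4-fold of each other, 32 and 37 reads. The WT product of 1978 allowed 2 such splits, 43 and 46 reads or 23 and 86 reads. With the larger count in the deeper library, MD43 lay at 1.32 to 1.80 RPM, below WT in 1 of 2 assignments. Over all assignments of these splits this was 4 of 8. The log2 fold change of -0.85 ± 0.33 (SE) corresponded to 1.80-fold lower, which exceeded 2 SE but not 2-fold.

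Pax8, the thyroid and kidney relative of Pax2, had the largest and least certain difference. The WT product of 304 allowed 1 split with counts within 4-fold of each other, 16 and 19 reads. The MD43 product could be made only by 1 library with 0 reads and 1 with 12. In all 4 assignments of these counts both MD43 libraries lay below both WT libraries. Wider splits of the WT product were left out, and the separation was not examined for them. The share of all genes that separate in this way was not counted. The deposited values gave a log2 fold change of -2.88 ± 0.66 (SE), but this rests on the 0.9 reads that stand in for the empty library. With this WT split, the summed reads (12 in MD43 and 35 in WT) and depths put Pax8 4.09-fold lower in MD43. The exact 95% interval of 2.07 to 8.65 rests on the same split and covers counting error between these libraries alone. The MD43 libraries differed from each other, since 1 had no read of Pax8 and the other had 12. Pax8 belonged to the 446 genes under 10 reads on average, of which 20% were lower and 33.2% higher by 2-fold or more, and 18.8% were lower and 24.2% higher by more than 2 SE.

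**Figure D3:**
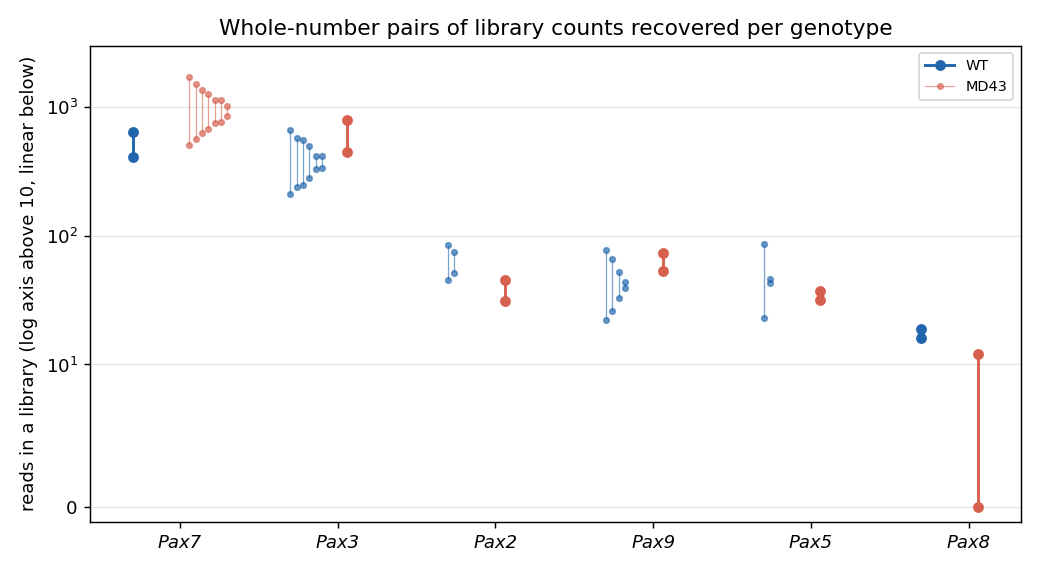
Reads per library for 6 Pax genes, not scaled for depth (log axis above 10, linear below). Each joined pair of points is 1 split of the recovered product into whole counts within 4-fold of each other, bold where it is the only one. The pair of Pax8 in MD43 includes an empty library, to which this limit was not applied. Pax2 and Pax8 have fewer reads in MD43, whose libraries were deeper on average, while the geometric means of Pax7 and Pax3 are higher there.

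Pax6, the regulator of eye, forebrain and nasal placode, had 1951 reads in WT and 2136 in MD43. Its products were too large to be split into counts. The log2 fold change was -0.35 ± 0.24 (SE), or 1.27-fold lower in MD43, which did not exceed 2 SE. Among the 4580 genes with over 1000 reads, the central 95% ran from -0.31 to 0.34, and Pax6 lay just below this range.

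Pax3 and Pax7, the relatives used in neural crest and dorsal neural tube, both had higher values in MD43, within 2 SE. Pax7 had 513 reads in WT and 932 in MD43. Its WT product allowed 1 split, 407 and 647 reads, and its MD43 product 7 splits, from 855 and 1016 to 508 and 1710. The MD43 product exceeds 400000, and of products from there to 1000000 only 62.9% in MD43 lay within 0.1 of a whole number, so that these 7 splits are uncertain. With the larger count in the deeper library, WT lay at 30.6 to 33.4 RPM and MD43 lay above both WT libraries in 5 of 7 assignments. Over all assignments this was 5 of 28. The log2 fold change of Pax7 was 0.39 ± 0.24 (SE), or 1.31-fold higher.

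Pax3 had 373 reads in WT and 598 in MD43. The MD43 product of 358138.1 lay slightly further from a whole number than the tolerance of 0.1, and rounded to 358138 it allowed 1 split, 446 and 803 reads. In WT, 6 splits were possible, from 336 and 415 to 210 and 664. If the MD43 split holds, with the larger count in the deeper library, MD43 lay at 25.1 to 28.7 RPM and above WT in 1 of 6 assignments. The log2 fold change was 0.20 ± 0.25 (SE), with an approximate 95% interval of -0.28 to 0.69. The central 95% of the 6481 genes with 100 to 1000 reads ran from -0.62 to 0.45, and it contained both Pax3 and Pax7.

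Pax9, a palate and tooth regulator, had 41.4 reads in WT and 62.2 in MD43. Its MD43 product is the product of the primes 53 and 73, which were the counts of the libraries. In WT, 4 splits were possible, from 39 and 44 to 22 and 78. The genotypes overlapped in all 16 assignments. The log2 fold change was 0.11 ± 0.31 (SE), with an approximate 95% interval of -0.50 to 0.73, so that a moderate difference in either direction was not detectable at this depth.

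**Figure D4:**
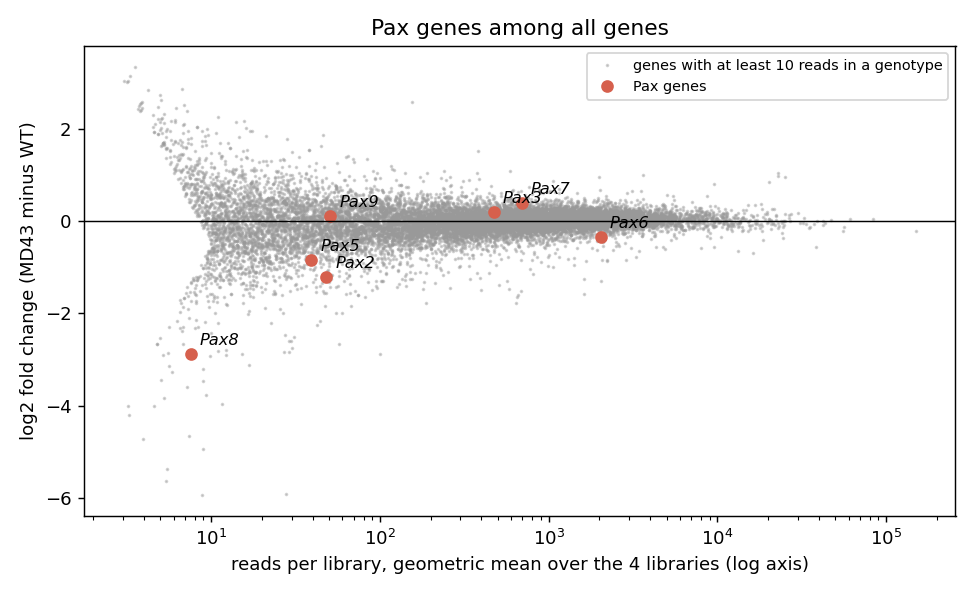
Log2 fold change (MD43 minus WT) against the reads per library (geometric mean over the 4 libraries, log axis) for all 15377 genes that reached 10 reads in WT or MD43 (grey) and the 7 Pax genes (coloured). The scatter of all genes widens to the left, where Pax8, Pax5, Pax2 and Pax9 lie.

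Transcripts next to the Pax genes were then examined, since antisense and neighbouring genes can share reads. Within 100 kb of the 8 genes lay 34 other rows, of which 10 overlapped a Pax gene, each on the opposite strand, and 14 had no reads in any library. The libraries were stranded, but the strand setting of the authors' counting is not stated, so that reads of overlapping pairs may be shared. Pax6os1, antisense to Pax6 (chromosome 2, 105536080 to 105670330, minus strand), was covered by 6 reads in WT and by 3.46 in MD43. Paupar, a non-coding RNA upstream of Pax6, had 9.95 reads in WT and 4.24 in MD43. Both are too low for the filter used here. So are Gm13415, which overlaps Pax8 (3.46 reads in WT and 0.949 in MD43), and 5730488B01Rik, which overlaps Pax5 (6.71 and 3.87). Gm12462 and 4930517J16Rik, also over Pax5, had at most 1.34 reads in either genotype. Elp4, the gene next to Pax6 on its other side, was at -0.11 ± 0.24 on the log2 scale.

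Of the 10 neighbours with at least 10 reads in a genotype, 4 differed by more than 2 SE, beside 5.51% lower and 2.89% higher over all genes. Zcchc7, 45390 bp from Pax5, was lower like Pax5, at -0.60 ± 0.25. Nkx2-9, 78483 bp from Pax9, was lower at -1.02 ± 0.37 while Pax9 itself was not. Aldh4a1, 87372 bp from Pax7, was higher at 0.74 ± 0.25. Nkx2-2os, 30244 bp from Pax1, was lower too, with 15.5 reads in WT but only 1.34 in MD43, where 1 library had none, and it passed the filter through WT alone. Slc25a21, whose 3′ end overlaps that of Pax9, was at 0.32 ± 0.29, and Psd4, 5606 bp from Pax8, at 0.57 ± 0.38.

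Genes that act with the PAX proteins or in the same tissues were compared next. Their counts stand beside shares over all 15377 genes of 2.47% lower and 1.64% higher by 2-fold or more, and of 5.51% lower and 2.89% higher by more than 2 SE. EYA and DACH proteins and their partners form a network with PAX proteins in sensory placodes and the eye. All 11 genes of this list had reads, 0 of 11 differed by 2-fold or by more than 2 SE in either direction, and their median log2 fold change was 0.08. The most abundant were Eya2 (0.36 ± 0.24) and Eya3 (0.10 ± 0.24). Cofactors of PAX proteins, such as the Groucho corepressors of the Tle family and the H3K4 methyltransferase complex that PAXIP1 links to chromatin, had a median of 0.04 over 21 genes. Of these, 1 differed by 2-fold, Pou3f2, a POU factor of neural progenitors, which was lower at -1.50 ± 0.25. Hdac2 (-0.02 ± 0.24) and Dpy30 (0.08 ± 0.24) were the most abundant.

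The genes that share the eye, lens and olfactory domains of Pax6 were lower more widely. Of 17 with enough reads, 6 were at least 2-fold lower, 0 were 2-fold higher, and the median was -0.62. Of the 6, 1 passed the filter through WT alone. By more than 2 SE, 8 were lower and 1, Lhx2, was higher at 0.49 ± 0.24. The retinal regulator Rax was 4.51-fold lower (-2.17 ± 0.33), with 79.4 reads in WT and 24.5 in MD43. Tbr1 (-1.60 ± 0.29) and Neurog2 (-1.06 ± 0.26), which follow Pax6 in cortical neurogenesis, were lower as well, as were Mab21l1 (-1.30 ± 0.28), a lens and eye gene, and Mitf (-1.01 ± 0.29), the pigment cell regulator. Sox2, the most abundant of the list, was at -0.13 ± 0.24.

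The list around Pax2, Pax5 and Pax8 had a median of -0.34 over 11 genes, with 1 at least 2-fold lower, 5 lower by more than 2 SE and 0 higher by either rule. Over all genes, 2.47% were lower by 2-fold or more and 5.51% by more than 2 SE. Lhx1, a LIM homeodomain gene of kidney and brain, was lower at -1.03 ± 0.33. Spry1, a feedback inhibitor of FGF signalling, was at -0.60 ± 0.24 and Emx2, a cortical and kidney gene, at 0.30 ± 0.24. The 5 members under 10 reads included En1 and En2, which define the boundary of midbrain and hindbrain with Pax2 and Pax5. En1 had no read in WT and 2.00 reads in MD43, and En2 had no read in WT and 0.949 in MD43, where 1 library had none. Wnt1 of the same region had 8.49 reads in WT and none in MD43.

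Among 13 genes around Pax3 and Pax7 with enough reads, 2 were at least 2-fold lower and 5 lower by more than 2 SE, with 0 higher, and the median was -0.23. The shares over all genes were 2.47% and 5.51%. The 2 genes were Ednrb, the endothelin receptor of crest and pigment cells (-1.27 ± 0.27), and Sox10, a crest factor with 10.8 reads in WT and 6.24 in MD43 (-1.27 ± 0.57), which passed the filter through WT alone. Zic1, a dorsal neural and crest factor, was at -0.84 ± 0.24, and Msx1, the most abundant of the list, at -0.17 ± 0.24. The list around Pax1 and Pax9 had a median of -0.07 over 14 genes, with 2 at least 2-fold lower, 1 at least 2-fold higher, 3 lower by more than 2 SE and 0 higher by more than 2 SE, where the shares over all genes were 2.47%, 1.64%, 5.51% and 2.89%. Tbx18 (-1.26 ± 0.27) and Barx1 (-1.30 ± 0.38) were lower, Meox2 was at 1.05 ± 0.67 on 3.55 reads in WT and 10.2 in MD43, which alone passed the filter, and Sox9, the cartilage regulator, was at -0.18 ± 0.24.

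**Figure D5:**
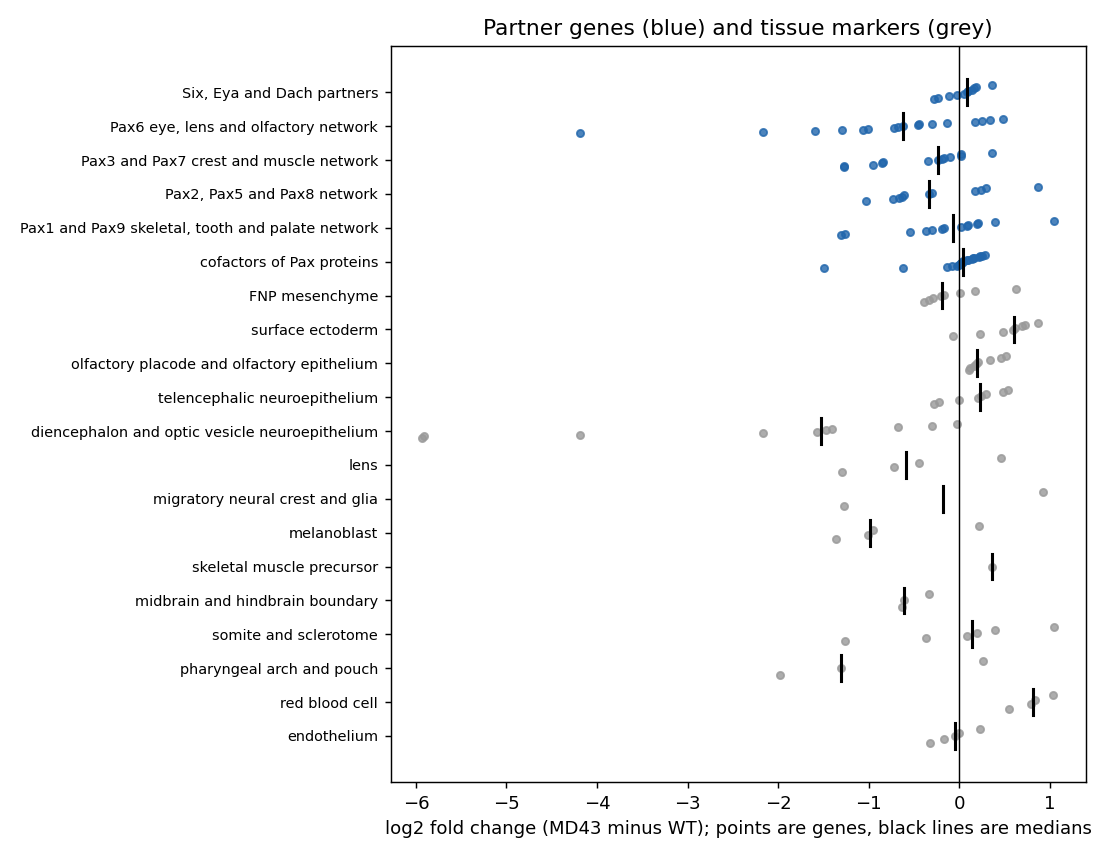
Log2 fold change (MD43 minus WT) of genes that reached 10 reads in WT or MD43, in the lists of Pax partners (blue) and in tissue marker lists (grey), with the median of each list as a black line. The diencephalon and optic vesicle list lies lowest, at a median of -1.52, and the red blood cell list highest, at 0.82.

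Markers of the tissues that use Pax genes moved between the genotypes too. Beside their counts stand the shares over all 15377 genes, 5.51% lower and 2.89% higher by more than 2 SE. Among genes with 10 to 100 reads on average, these shares were 12.1% and 5.22%. FNP mesenchyme was present as labelled, with all 8 markers measured and a summed level of 153 RPKM in WT and 150 RPKM in MD43 (median -0.19). The diencephalon and optic vesicle markers were lower in 10 of 10 cases, 7 of them by more than 2 SE. Their summed level was 22.7 RPKM in WT and 11.2 RPKM in MD43, and Vax1, an optic stalk gene like Pax2, was at -0.30 ± 0.27, while Six6 was at -0.02 ± 0.26. Several of these markers were already known to be lower in these data when the list was chosen, so their count is not independent evidence of its direction. The telencephalic markers summed to 207 RPKM in WT and 229 RPKM in MD43 (median 0.23, 2 of 8 higher and 0 lower by more than 2 SE), led by Hes5 (-0.23 ± 0.24) and Lhx2.

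The surface ectoderm markers summed to 121 RPKM in WT and 187 RPKM in MD43, with 6 of 8 higher by more than 2 SE, such as Cldn6 (0.87 ± 0.24) and Krt18 (0.49 ± 0.24). By this rule 2.89% of all genes were higher and 5.51% lower, and the counts of this paragraph stand beside these shares. The olfactory placode markers were higher in 8 of 8 cases with enough reads, 1 by more than 2 SE, with Sp8 at 0.34 ± 0.24. The lens markers summed to 10.3 RPKM in WT and 8.42 RPKM in MD43, 2 of 4 lower by more than 2 SE, with Cryab at 0.46 ± 0.27, and Cryaa, Foxe3 and Pitx3 had under 10 reads. The list named for the midbrain and hindbrain boundary summed to 61.7 RPKM in WT and 42.5 RPKM in MD43. Only 3 members had enough reads, Spry1 (-0.60 ± 0.24), Fgf17 (-0.64 ± 0.25) and Fgf8 (-0.34 ± 0.25), 2 of them lower by more than 2 SE. Its other members, En1, En2, Gbx2 and Wnt1, had under 10 reads, so the sum is not a measure of boundary tissue. The part of tissue content in the differences of Pax2, Pax5, Pax6 and Pax8 was not tested.

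Other tissues in which Pax genes act were scarce in these pieces. Of 6 skeletal muscle precursor markers, 5 had under 10 reads, among them Myf5 and Myod1, targets of Pax3 and Pax7 in muscle. The somite and sclerotome markers summed to 7.52 RPKM in WT and 6.43 RPKM in MD43, and the sclerotome factor Nkx3-2, a target of Pax1 and Pax9, had under 10 reads. Pharyngeal arch and pouch markers summed to 7.68 RPKM in WT and 5.95 RPKM in MD43, with Lhx8 (-1.98 ± 0.31) and Dlx6 (0.27 ± 0.26) the most abundant and Gcm2 without reads. The melanoblast markers summed to 7.04 RPKM in WT and 5.99 RPKM in MD43, 3 of 4 lower by more than 2 SE, such as Pmel (-1.36 ± 0.35), with Kit at 0.22 ± 0.24. By this rule 5.51% of all genes were lower, and 12.1% of those with 10 to 100 reads on average. Migratory crest and glia had 2 of 4 markers with enough reads, Sox10 and Erbb3 (0.92 ± 0.25), which moved in opposite directions. The red blood cell markers were higher in 4 of 4 cases, led by Hbb-bh1 (1.04 ± 0.24), and summed to 3055 RPKM in WT and 5807 RPKM in MD43. The endothelial markers had a median of -0.05, with Cdh5 at -0.01 ± 0.26 and Kdr at -0.33 ± 0.25. Smchd1, which carries the mutation, had 3185 reads in WT and 4390 in MD43, a log2 fold change of -0.01 ± 0.24.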

How the data were processed

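Per the labels, each FNP gave 100 ng of total RNA for a stranded poly(A) library. The authors trimmed reads with Trim Galore 0.4.4, mapped them with HISAT2 2.0.5 to GRCm38 and quantified them in SeqMonk v1.47.2, and the deposited values are log2 RPKM, 1 column per genotype, averaged over its 2 libraries. Sex chromosomes are not part of the table. The deposited q-values (FDR), log2 fold changes and means of the authors' comparison were not used. The planned count test could not be run on this unit.

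The 33708 rows were joined to GENCODE M21 on symbol and coordinates, and 33101 matched. The most frequent difference (-0.475803) occurred in 12862 rows. After adding log2 of the summed exon length to log2 RPKM, 97.9% of the matched ones gave 1 constant. They were taken as genes without reads, with an empty library counted as 0.9 reads, which gave the product of both libraries' reads for every gene. Of products from 1000 to 10000, 99.7% lay within 0.1 of a whole number, and from 100000 to 400000, 96.6% in MD43 and 96.2% in WT. From 400000 to 1000000 these shares were 62.9% and 58.0%, so that splits there are uncertain. Products from 10000 to 200000 with 2 prime factors of at least 10 gave the counts of single libraries for 93 genes in MD43 and 113 in WT, and all but 1 of these pairs lay within 4-fold. A folded normal fit to their log2 ratios gave depth ratio and spread. Splits beyond 4-fold were left out, except where 1 library was empty. The method was tested on simulated data. Calculations used Python 3.11.15, sympy 1.14.0 and scipy 1.17.1.

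Named genes were all members, neighbours within 100 kb, Smchd1, partner list members 2-fold or more apart that reached 10 reads in WT or MD43, and the 2 most abundant of each list, except a few genes that are not reported here. Others (such as En1, Wnt1, Nkx3-2 or Cryaa) were named after their values were seen. Members and lists were chosen with earlier results of these data known. The labels give the samples as separate embryos.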

Additional observations from a re-analysis of the deposited data

How the results depend on the processing

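Of 36 alternative values for single Pax genes, 32 stayed within the 95% counting interval and none changed sign. The others came from pseudocounts, which shrink low genes: with 1 RPKM the log2 fold change was -0.39 for Pax2, -0.16 for Pax5 and -0.20 for Pax8, and with 0.1 RPKM it was -1.17 for Pax8. From summed reads, an alternative chosen after seeing the data, Pax8 was at -2.03. The count of Pax genes at least 2-fold apart, 2, became 1 with 0.1 RPKM and 0 with 1 RPKM, and 1 with at least 10 reads in both genotypes or 50 reads in a genotype, filters that remove Pax8. The median log2 fold change of the Pax genes was -0.16 with 1 RPKM, -0.41 without a filter, -0.12 with 10 reads in both genotypes and 0.11 with 50 reads in a genotype, which leaves out Pax5 and Pax8 and so turned its sign. Centring, or a fit on GC content and exon length, changed no call. No paired analysis was possible because each genotype had 1 merged value, and for the same reason no fit leaving out a replicate and no DESeq2 test was run. Whether 1 embryo decides a difference is therefore known only where the counts were recovered. Depth limits Pax1, Pax2, Pax5, Pax8 and Pax9, all with under 100 reads.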
